A study of Mus musculus with 8 samples.

Results

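Transcripts of 10 genes of extracellular metalloproteases and their inhibitors were followed in gonadal white fat of control mice and of mice lacking Pex5 under the aP2 promoter. The 10 genes are the matrix metalloproteases Mmp2, Mmp3, Mmp12, Mmp14 and Mmp19, the related ADAMTS proteases Adamts1, Adamts5 and Adamts12, and the inhibitors Timp1 and Timp3. They are 10 of the 18193 genes measured, taken by exact gene symbol, and 21 probe sets carry their names. They were selected on the measured differences between knockout and control in these arrays, in which Mmp12 and Adamts12 had been named. Differences of the 10 genes between the groups are therefore a description: their intervals show the spread between arrays, and the counts of calls stand beside those of all genes with nothing read from them.

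The study compared RNA from 4 control samples, which the labels also call wild type, with RNA from 4 samples labelled aP2-Pex5 -/-, all untreated and labelled 10 weeks. A Swiss background is given for the controls and none is stated for the knockouts. The Pex5 protein carries enzymes into the peroxisome, and the submitters describe the knockouts as lacking working peroxisomes in fat. The labels do not say which alleles the controls carried, whether an array came from a single animal, or of which sex the mice were, so p-values measure only the spread between these samples, which may be technical. The aP2 gene, Fabp4, is best known from adipocytes and is also expressed by macrophages and endothelial cells, and gonadal fat holds all of these.

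Matrix metalloproteases are zinc enzymes that are made as inactive precursors, cut collagens, elastin and other matrix proteins, and are blocked by the tissue inhibitors of metalloproteases, the Timps. ADAMTS enzymes are secreted relatives that cut proteoglycans such as aggrecan and versican. Fat tissue remodels its matrix as adipocytes enlarge, and both its fibroblast-like cells and its macrophages make these enzymes.

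Mmp12 and Mmp3 lie in 1 cluster of protease genes on chromosome 9, with Mmp1b between them, and they are the members that varied most and least over the 8 arrays. Their upstream sequences are shown for that reason, from the RefSeq table of build GRCm38.p6, in which 7 of the 10 genes had a window. Each is the 250 bases before an annotated start on the plus strand, chr9:7347124-7347373 for the second of the listed Mmp12 starts and chr9:7445572-7445821 for Mmp3. Capitals mark the AP-1 motif, searched as TGAGTCA and its reverse complement TGACTCA.
Mmp12: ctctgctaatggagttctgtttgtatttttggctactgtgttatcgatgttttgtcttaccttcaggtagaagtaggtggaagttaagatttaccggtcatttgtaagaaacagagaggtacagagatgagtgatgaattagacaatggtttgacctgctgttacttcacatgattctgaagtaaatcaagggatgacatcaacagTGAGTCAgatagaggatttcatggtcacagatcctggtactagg
Mmp3: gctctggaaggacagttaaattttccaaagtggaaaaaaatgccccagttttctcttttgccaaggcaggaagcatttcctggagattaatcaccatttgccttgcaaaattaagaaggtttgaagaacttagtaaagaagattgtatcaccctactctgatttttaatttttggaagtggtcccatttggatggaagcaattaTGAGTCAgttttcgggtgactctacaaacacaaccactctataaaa
The motif began 44 bases before the start in Mmp12 and 46 bases before it in Mmp3. Such a match was present in 4.46% of the 32851 windows of the same length, and among the 8 windows of members only in these. The other listed Mmp12 start, with its window at chr9:7344147-7344396, held no match. The match is a description of the letters and shows no binding.

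The values are log2 signals, and a difference of 1 is a doubling. The median log2 value of an array ran from 6.44 to 6.52, and a list of adipocyte genes averaged between 13.21 and 13.60 on every array. Some genes of that list, such as Adipoq and Fabp4, read near the highest value measured, 14.83. The narrow span therefore does not show that the arrays held equal shares of adipocytes. The arrays fell into 2 sets by the lower quartile of their values, set A with controls 1 and 2 and knockouts 6 and 8, and set B with controls 3 and 4 and knockouts 9 and 10. RNA quality was read from the array's pyruvate carboxylase controls, where the 3' minus the 5' signal was 3.97 in control 1, 4.83 in control 4 and 4.65 in knockout 9, and lay between 1.59 and 2.10 on the other 5 arrays. Levels below are listed in the order control 1, 2, 3, 4 and knockout 6, 8, 9, 10.

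Of the 10 genes, 8 had a lower mean in knockout and 2 a higher one. The median difference, knockout minus control, was -0.16 over the members and -0.00818 over all genes, of which 53.3% lay below control (63.3% with array medians subtracted). With limma, adjusted over all 18193 genes by Benjamini-Hochberg, 0 of the 10 were called at 0.05, where 0.0% of all genes were called. With 1 probe set per gene, the one of highest mean, the groups did not overlap for 1 member, Adamts12, and for 1.02% of all genes in that direction and 1.7% in either. At an unadjusted limma p under 0.05 lay 1 member, again Adamts12, and 2.56% of all genes. Both restate the choice of the gene and are no support for it. The sign of the mean difference turned in at least 1 of the alternatives for Mmp2, Mmp14, Mmp19, Adamts5 and Timp3, and kept for the other 5 members. For Adamts12, whose groups did not overlap, it could not turn when arrays were left out or taken by array set.

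**Figure D1:**
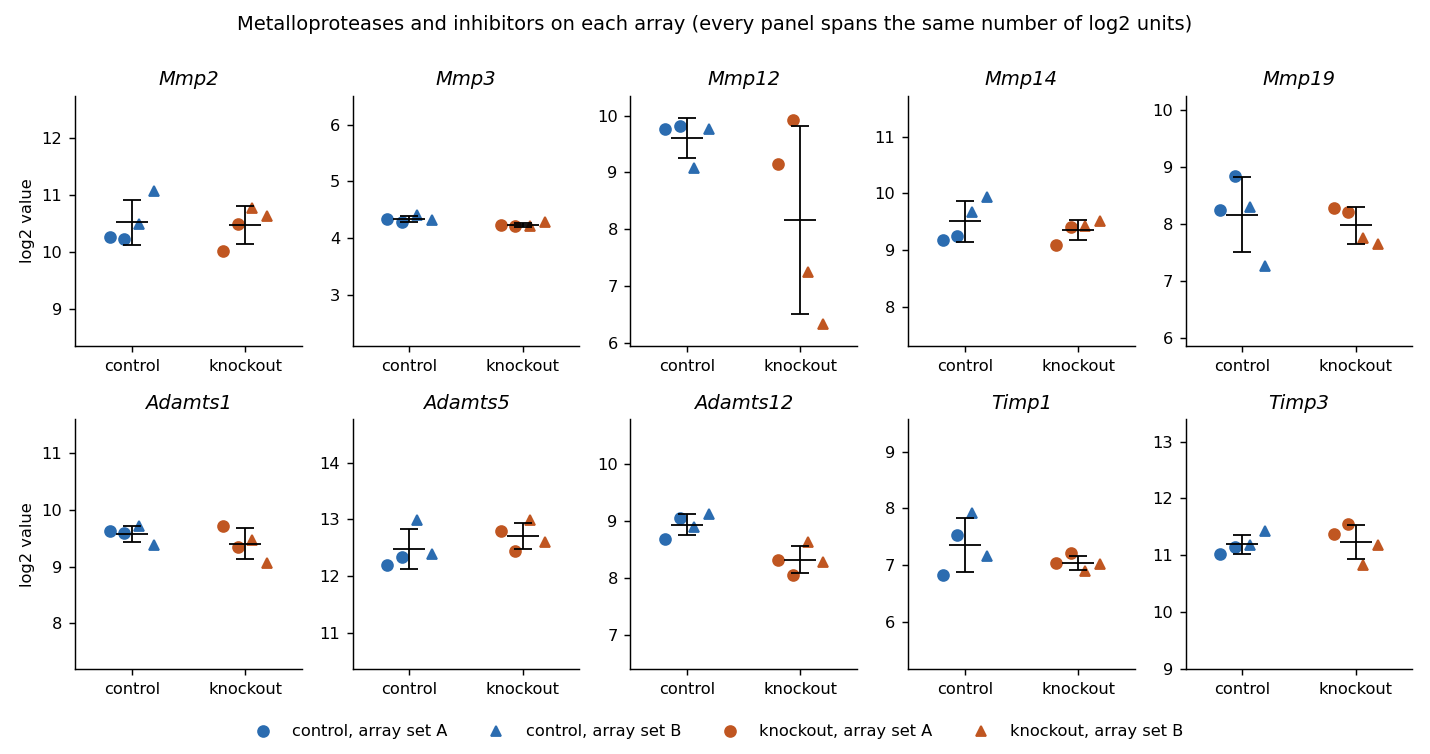
Log2 value of each of the 10 genes on each array, with 4 controls in blue and 4 knockouts in orange, circles for array set A and triangles for array set B. Bars give the group mean and SD, and every panel spans the same number of log2 units. Mmp12 is low on knockouts 9 and 10, and Adamts12 is lower on all 4 knockouts than on any control.

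Mmp12, macrophage elastase, was the most variable member. It read 9.77, 9.82, 9.08 and 9.77 on the controls and 9.16, 9.92, 7.25 and 6.33 on the knockouts. Knockout 6 lay within the span of the controls, knockout 8 was the highest of all arrays, and knockouts 9 and 10 lay below every control. Controls averaged 9.61 ± 0.35 and knockouts 8.16 ± 1.66 (SD, n = 4 each), and knockout minus control was -1.45 (95% interval -3.10 to 0.20). Its SD over the 8 arrays ranked 123 from the top among 18193 genes, and its SD over the knockouts ranked 27. The difference was -0.26 within array set A and -2.64 within set B, with 2 arrays per group in each. Without knockout 10 it was -0.83, without knockout 8 it was -2.03, and without knockouts 9 and 10, a choice made after seeing the values, it was -0.07. Knockouts 9 and 10 share the array set with controls 3 and 4, which read 9.08 and 9.77, and they differed in RNA quality, at 4.65 and 1.60. A single probe set measures Mmp12, so no other probe set was at hand for comparison.

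The mean of a list of lipid-laden macrophage genes was lowest on the same arrays as Mmp12, and that of general macrophage markers was not. The 15 measured markers of macrophages, among them Adgre1, Csf1r and C1qa, averaged 9.35 to 9.82 on the controls and 9.075 to 9.61 on the knockouts, with 9.61 and 9.59 on knockouts 9 and 10. Of these 15, 13 had a lower mean in knockout, with a median difference of -0.18, beside 53.3% of all genes, and 0 passed. Knockout 6 had the lowest mean of this list, 9.075, against 9.52 to 9.61 on the other knockouts. How far the count of 13 rests on knockout 6 was not tested. At an unadjusted limma p under 0.05 lay 3 of the 15, all lower in knockout, beside 2.56% of all genes. These were Adgre1 (-0.44), a surface receptor of mouse macrophages, Cd68 (-0.37), a lysosomal glycoprotein, and Marco (-0.22), a scavenger receptor. Marco was dim, reading between 5.69 and 6.01, below the median gene level. Its groups did not overlap, as for 1.02% of all genes in that direction. The 9 measured genes of lipid-laden macrophages averaged 10.35, 10.54, 10.04 and 10.36 on the controls and 10.31, 10.49, 9.72 and 9.64 on the knockouts. Knockouts 9 and 10 had the lowest means of that list, and they were also the lowest for Mmp12. Single genes of both lists departed from their mean. Lpl of the lipid-laden list read 14.41 and 14.43 on knockouts 9 and 10, within the 14.38 to 14.54 of the controls. Cd68 of the general list read 9.05, 9.77, 9.28 and 9.09 on the knockouts, against 9.61 to 9.71 on the controls. Of these 9 genes, 8 had a lower mean in knockout, with a median difference of -0.25, 0 passed, and 0 lay at an unadjusted p under 0.05. Lpl, Fabp5 and Cd9 of this list are also expressed by adipocytes or other cells of fat. In bulk tissue, fewer cells of a type and less RNA per cell cannot be told apart, and the part of these cells in the Mmp12 values was not tested.

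**Figure D2:**
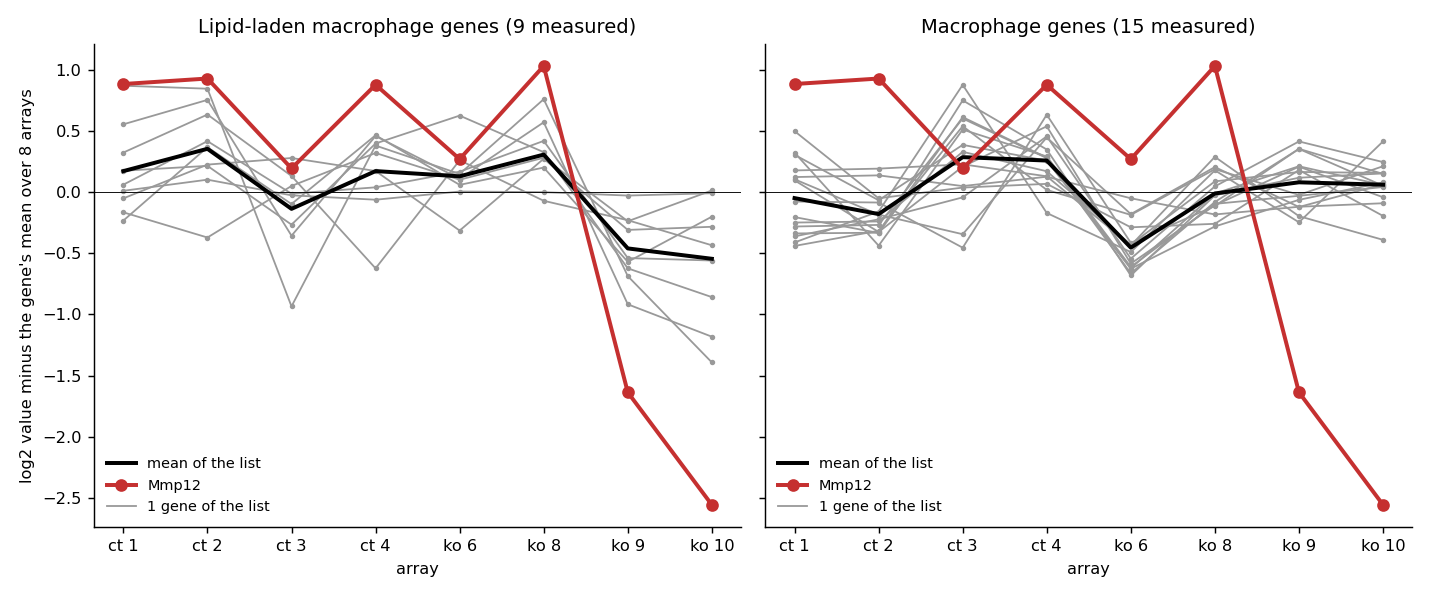
Log2 value minus the gene's own mean over the 8 arrays, for 9 genes of lipid-laden macrophages (left) and 15 general macrophage markers (right), with Mmp12 in red and the mean of each list in black; ct is control and ko is knockout. On knockouts 9 and 10 the mean of the lipid-laden list lies below 0 with Mmp12, and the mean of the general list does not. Single genes of both lists depart from their mean.

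Across all genes, 12 followed Mmp12 at a Pearson's r of 0.9 or more over the 8 arrays. Over all genes the median count was 47, and 14.0% of genes had fewer followers than Mmp12. Since knockouts 9 and 10 stand apart, r over 8 arrays mostly reads these arrays, and r over the other 6 is given beside it. Among brighter and variable genes the 5 most like Mmp12 were Lgals3, Lipa, Tnfaip2, Fam207a and Itgax, picked for their likeness out of all genes, so no p is given. Lgals3, which encodes the lectin galectin-3 of activated macrophages, had an r of 0.92, a Spearman's rho of 0.93 and an r of 0.54 over the 6 arrays. It read 11.85, 12.21, 11.78 and 11.83 on the controls and 11.96, 12.21, 11.25 and 11.23 on the knockouts. Lipa, the lysosomal acid lipase that releases fatty acids from stored cholesterol esters and triglycerides, had an r of 0.92, a rho of 0.52 and an r of 0.33 over 6. Itgax, the integrin CD11c of dendritic cells and inflamed fat macrophages, had an r of 0.88, a rho of 0.62 and an r of 0.24 over 6. For Tnfaip2 the r was 0.91 (rho 0.67, 0.19 over 6) and for Fam207a 0.88 (rho 0.64, 0.34 over 6). For all 5 followers the likeness over 8 arrays was larger than over the 6, which picking them on the 8 arrays favours. Over deviations from the group means, which keep knockouts 9 and 10, their r lay between 0.91 and 0.93.

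Atp6v0d2, a proton pump subunit of macrophages and osteoclasts, and Gpnmb, a lysosomal glycoprotein, kept their likeness without knockouts 9 and 10. Both stood on the list of lipid-laden macrophage genes, and they were singled out after their values were seen. Atp6v0d2 read 8.04, 8.24, 7.13 and 7.95 on the controls and 7.60, 8.06, 6.57 and 6.30 on the knockouts. Its r with Mmp12 was 0.96 over 8 arrays and 0.92 over the other 6. Gpnmb read 9.76, 9.74, 7.96 and 9.27 on the controls and 9.04, 9.65, 8.20 and 7.50 on the knockouts, with an r of 0.86 over 8 and 0.86 over 6. Control 3, the lowest control for Mmp12, was also the lowest control for both genes. Of the 9 genes of lipid-laden macrophages 5 reached an r of 0.7 with Mmp12 over 8 arrays and 2 over 6, against 1 and 0 of the 15 general markers. Among all genes 1.39% reached 0.7 over 8 arrays and 3.84% over 6.

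Adamts12, a protease that cuts cartilage oligomeric matrix protein, was lower on every knockout array than on any control. It read 8.69, 9.05, 8.90 and 9.13 on the controls and 8.32, 8.05, 8.63 and 8.28 on the knockouts. The lowest control, control 1, lay above the highest knockout, knockout 9, by 0.06. Controls averaged 8.94 ± 0.19 and knockouts 8.32 ± 0.24 (SD, n = 4 each), and knockout minus control was -0.62 (95% interval -0.94 to -0.30). It was -0.68 within array set A and -0.56 within set B, and lay between -0.72 and -0.53 with each array left out in turn. Since every knockout lay below every control, the sign of these differences was fixed in advance and is no support. The other, dimmer probe set of Adamts12 read between 3.73 and 4.32, with overlapping groups and a difference of -0.24. Its values correlated with those of the brighter probe set at an r of 0.37 over the 8 arrays, a description with no test.

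Followers of Adamts12 numbered 19 at an r of 0.9 or more, and 23.5% of all genes had fewer. Of these 19, 4 had a mean above the median gene. The closest, Oxnad1 (r of 0.97), was passed over for its SD of 0.16. Among brighter and variable genes, by the same rule as for Mmp12, the 5 most like Adamts12 were Rflna, Gbp2, Ackr1, Rab40b and Fam111a. Only Rflna of these 5 reached 0.9. Rflna, a regulator of filamin, read 9.04, 9.04, 8.89 and 9.10 on the controls and 8.66, 8.50, 8.88 and 8.64 on the knockouts, at an r of 0.94 and a rho of 0.93. Its r was 0.87 without control 4 and knockout 8, the arrays farthest from the Adamts12 median, and 0.79 over deviations from the group means. Gbp2, a guanylate-binding protein induced by interferon, had an r of 0.84 and a rho of 0.83, and 0.60 over deviations from the group means. Ackr1, the chemokine-binding receptor of venules and red cells, had an r of 0.82 and 0.52 over those deviations. The corresponding values were 0.78 and 0.44 for Rab40b and 0.78 and 0.34 for Fam111a. For all 5 the likeness was smaller once the group means were taken out. They were picked for a high r over 8 arrays with a gene whose groups did not overlap, so the picking favours such a drop. Among the marker lists of cell types, 1 of 15 macrophage genes and 0 of 9 lipid-laden macrophage genes, 0 of 11 fibroblast genes, 0 of 9 endothelial genes and 0 of 7 smooth muscle genes reached an r of 0.7 with Adamts12, against 2.53% of all genes. The lists of ovary, oviduct and uterus, of epididymis and of smooth muscle genes ran the other way. Their median r with Adamts12 over 8 arrays was -0.44, -0.39 and -0.37. Without control 4 and knockout 8 it was -0.55, 0.15 and -0.81. Neutrophil genes had the highest median r over 8 arrays, at 0.55 (0.18 without those arrays). All 7 smooth muscle genes had a higher mean in knockout, with a median difference of 0.40, where 53.3% of all genes lay below control. Of these 7, 0 were called or lay at an unadjusted p under 0.05. Their mean level lay between 7.88 and 9.07 on the controls, with control 4 the highest, and between 8.52 and 9.07 on the knockouts, and their part in the Adamts12 values was not tested.

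**Figure D3:**
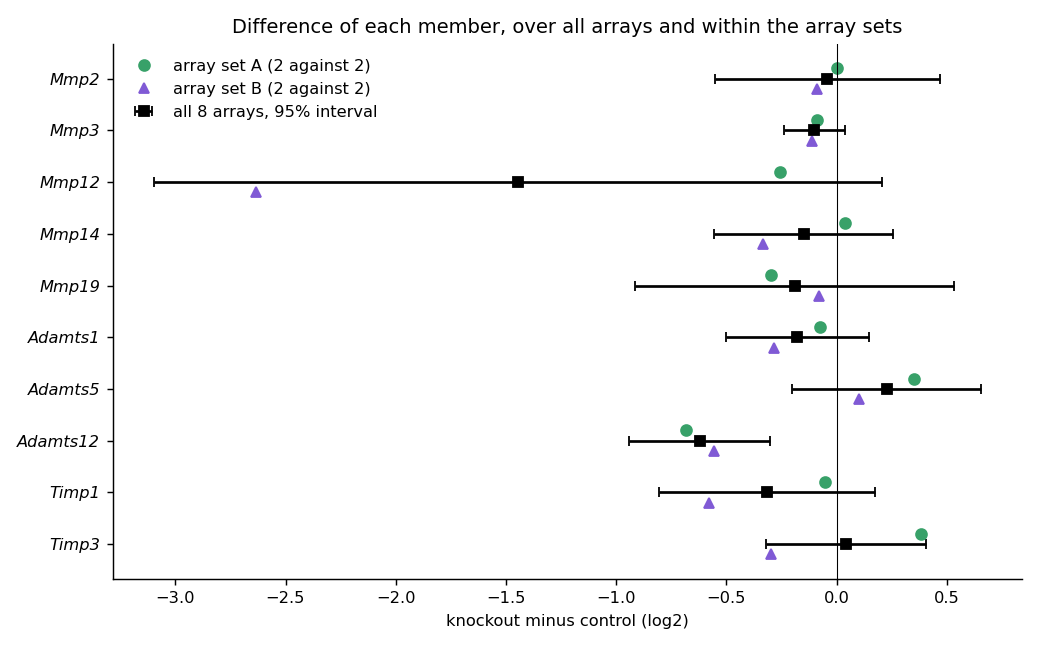
Difference between knockout and control means of each gene on the log2 scale, over all 8 arrays with its 95% interval (black squares) and within array set A (green circles) and set B (purple triangles), each with 2 arrays per group. Adamts12 is at -0.68 in set A and -0.56 in set B, and Mmp12 is at -0.26 in set A and -2.64 in set B.

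Mmp14, the membrane-bound protease that activates the Mmp2 precursor at the cell surface, and Mmp2, the gelatinase it activates, were highest on the same array. Mmp2 read 10.26, 10.23, 10.50 and 11.07 on the controls and 10.01, 10.50, 10.77 and 10.62 on the knockouts. Mmp14 read 9.17, 9.25, 9.67 and 9.93 on the controls and 9.10, 9.40, 9.42 and 9.51 on the knockouts. Control 4 was highest and knockout 6 lowest for both genes, and the groups overlapped. Differences were -0.04 (95% interval -0.55 to 0.47) for Mmp2 and -0.15 (-0.56 to 0.26) for Mmp14. With each array left out in turn the Mmp2 difference ran from -0.14 without knockout 9 to 0.14 without control 4, and that of Mmp14 from -0.26 without control 1 to -0.0087 without control 4. The second Mmp2 probe set gave -0.03. Of the other Mmp14 probe sets, the brighter gave -0.03 with overlapping groups, and the dimmer gave -0.25 with every knockout (6.43 to 6.64) below every control (6.67 to 7.03), which held in that direction for 0.93% of the 45037 probe sets.

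Mmp19, which is expressed in vessels and resting tissues as well as in macrophages, ran opposite to Mmp2. It read 8.25, 8.85, 8.30 and 7.26 on the controls and 8.29, 8.21, 7.75 and 7.65 on the knockouts, a difference of -0.19 (-0.91 to 0.53). Control 2 was highest and control 4 lowest, and its second probe set, with a difference of -0.29, correlated with the first at an r of 0.99 over the 8 arrays. Without control 4 the Mmp19 difference was -0.49, and without control 2 it was 0.04. Control 4, the extreme array for Mmp2, Mmp14 and Mmp19, also had the largest 3' minus 5' signal of the RNA quality controls, 4.83. With RNA quality as a covariate the differences were 0.04 for Mmp2, -0.12 for Mmp14 and -0.33 for Mmp19. The mean of neutrophil markers was also highest on control 4, 8.42 against 5.73 to 6.12 on the other arrays. All 6 measured neutrophil markers had a lower mean in knockout, where 53.3% of all genes lay below control, and 0 were called. Control 4 enters that comparison. Without it the list averaged 5.84 to 6.07 on the controls and 5.73 to 6.12 on the knockouts. The part of RNA quality or of neutrophils in the control 4 values was not tested.

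Of the 45 pairs of members, Mmp2 with Mmp14 and Mmp2 with Mmp19 had the smallest permutation p-values. Mmp2 and Mmp14 correlated at an r of 0.88 (two-sided exact permutation p = 0.00454) and a rho of 0.88 (exact permutation p = 0.00724) over 8 arrays. After Benjamini-Hochberg adjustment over the pairs these were 0.204 and 0.326, and r without control 4 and knockout 6 was 0.60. Mmp2 and Mmp19 correlated at an r of -0.83 (exact permutation p = 0.0115, adjusted 0.258) and a rho of -0.79 (exact permutation p = 0.0279, adjusted 0.628), and at -0.85 without the same arrays. None of the pairs passed at an adjusted p of 0.05, and the smallest exact permutation p that 8 arrays allow is 4.96e-05. The array sets differed in these genes, with means of 10.25 in set A and 10.74 in set B for Mmp2, and of 8.40 and 7.74 for Mmp19. Over deviations from the set means r was 0.69 for Mmp2 with Mmp14 and -0.63 for Mmp2 with Mmp19, while 4 arrays within a set are too few for a correlation of their own.

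**Figure D4:**
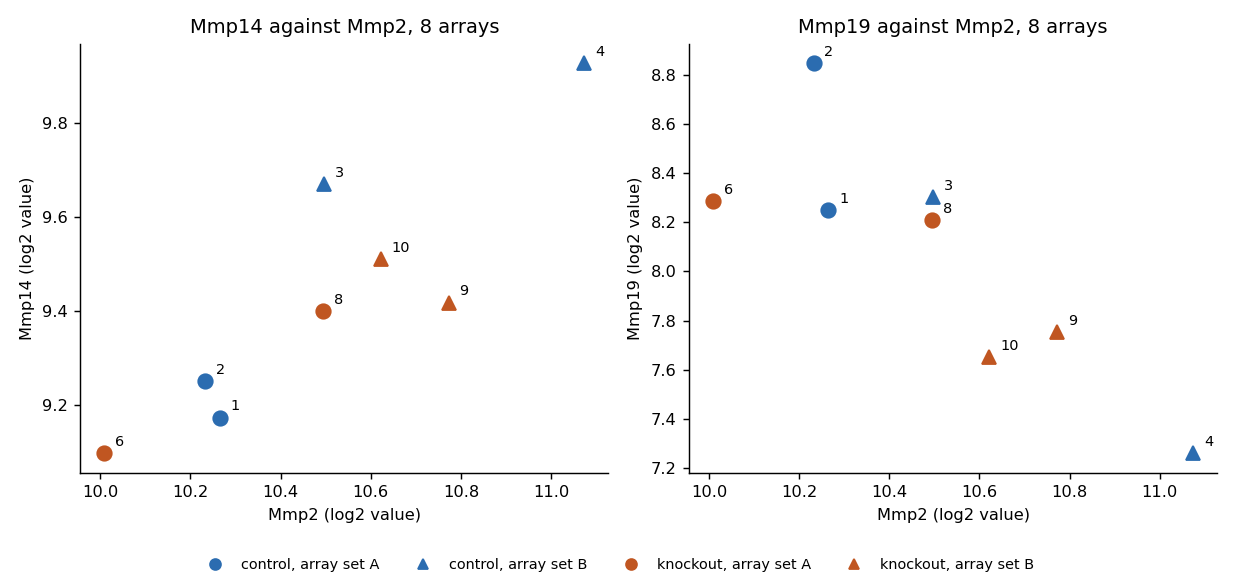
Log2 values of Mmp14 (left) and Mmp19 (right) against Mmp2 on the 8 arrays, labelled by replicate number, with controls in blue, knockouts in orange, circles for array set A and triangles for set B. Mmp14 is high where Mmp2 is high and Mmp19 is low there, and set B lies to the right of most of set A.

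The members counted as aggrecan-cutting enzymes, Adamts1 and Adamts5, are neighbours on chromosome 16 and had differences of opposite sign. Adamts5, the main aggrecanase of mouse cartilage, read 12.20, 12.33, 12.99 and 12.39 on the controls and 12.79, 12.44, 12.99 and 12.60 on the knockouts. Its highest control, control 3, and its highest knockout, knockout 9, read alike, and the lowest arrays were controls 1 and 2. The difference was 0.23 (95% interval -0.20 to 0.66), with 0.24 and 0.20 in the other bright probe sets and -0.04 in a dim one. With each array left out in turn it ran from 0.13 without knockout 9 to 0.40 without control 3. Adamts1, a protease also needed for ovulation, read 9.63, 9.59, 9.72 and 9.38 on the controls and 9.72, 9.34, 9.48 and 9.06 on the knockouts. Its groups overlapped, with the lowest value on knockout 10, and the difference was -0.18 (-0.50 to 0.15), and ran from -0.28 without knockout 6 to -0.06 without knockout 10.

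The inhibitors Timp1 and Timp3 differed in how they spread. Timp1, a secreted inhibitor of most matrix metalloproteases, read 6.82, 7.54, 7.92 and 7.17 on the controls and 7.04, 7.21, 6.90 and 7.03 on the knockouts. All knockouts lay inside the span of the controls, with SDs of 0.47 in control and 0.12 in knockout (n = 4 each). The Timp1 difference was -0.32 (-0.80 to 0.17), and ran from -0.50 without control 1, its lowest array, to -0.13 without control 3, its highest. Timp3, which binds to the matrix and also blocks ADAMTS enzymes and Adam17, read 11.01, 11.14, 11.19 and 11.42 on the controls and 11.37, 11.55, 10.83 and 11.18 on the knockouts. Knockout 8 was the highest array and knockout 9 the lowest, and the difference was 0.04 (-0.32 to 0.40). Within array set A it was 0.38 and within set B -0.30, so the sign turned between the sets, a difference that was not tested. With each array left out it ran from -0.06 without knockout 8 to 0.18 without knockout 9. The other Timp3 probe sets gave -0.03, 0.02 and 0.02.

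Mmp3, or stromelysin-1, which fibroblasts make on inflammatory stimulation, varied least. It read 4.33, 4.28, 4.40 and 4.32 on the controls and 4.22, 4.21, 4.21 and 4.28 on the knockouts. The range over the 8 arrays was 0.19, and 4.90% of all genes had a smaller SD. The lowest control and the highest knockout read the same, and the difference was -0.10 (-0.24 to 0.04). The deposited values hold no detection call, so whether this probe set measured any Mmp3 RNA is not known. In the gene cluster on chromosome 9, 9 of 10 metalloprotease genes were measured. Mmp13, next to Mmp12 on one side, read between 3.38 and 3.96, and Mmp1b, on the other side, between 3.53 and 3.87. Mmp7 at the far end of the cluster, a protease of glandular epithelium, read 11.22, 9.44, 6.34 and 10.81 on the controls and 11.45, 11.58, 10.26 and 10.68 on the knockouts, with control 3 far below the other arrays. The mean of 11 measured markers of ovary, oviduct and uterus was also lowest on control 3, at 5.85, against 6.36 to 7.02 elsewhere. Greb1 (4.92), Esr1 (9.77), Ovgp1 (5.20) and Foxj1 (4.91) were each lowest there, and the other markers of that list were not. Foxl2, Amh, Inha, Star, Hsd3b1 and Fshr of the list had means below the median gene level. The name of the list therefore does not identify the tissue or the sex. The mean of epididymis markers was 6.52 on control 1, 7.33 on knockout 8 and 4.85 to 5.41 on the other arrays. The part of such tissue in the Mmp7 values was not tested.

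The other genes of the system were taken from lists by role, with 78 of 90 measured under a single symbol and the rest not analysed here. Of the 78, 0 were called by limma in either direction, beside 0.0% of all genes. At an unadjusted limma p under 0.05 lay 3 of the 78, beside 2.56% of all genes. Below control lay 37 of the 78, beside 53.3% of all genes. The median difference of the 78 was 0.00645. Of 13 other matrix metalloproteases, 8 lay below control and 5 above (median -0.01), with Mmp13 at 0.29 (95% interval -0.00455 to 0.58) and Mmp7 at 1.54 (-0.69 to 3.77). Of 12 other ADAMTS proteases, 5 lay below and 7 above (median 0.02). Adamts19 stood at -0.27 (-0.47 to -0.07), reading between 3.32 and 3.91 over the arrays, and Adamts10 at 0.22 (-0.06 to 0.51). Of 9 other inhibitors, 3 lay below and 6 above (median 0.06). Papln, a matrix glycoprotein related to the ADAMTS enzymes, stood at 0.33 (0.04 to 0.62) and Timp4, the Timp found mainly in heart and fat, at 0.38 (-0.17 to 0.93).

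Timp4 read 11.79, 11.88, 12.99 and 12.17 on the controls and 12.61, 12.44, 12.62 and 12.67 on the knockouts. Its highest array was control 3, and 3 of the 4 controls lay below every knockout. Of 9 activators and their partners, 5 lay below control and 4 above (median -0.03). Plaur, the receptor that holds urokinase at the cell surface, stood at -0.35 (-0.62 to -0.07), with 7.32, 7.66, 7.58 and 7.38 on the controls and 7.25, 7.24, 6.85 and 7.22 on the knockouts. Its groups did not overlap, as for Adamts19 and for 1.7% of all genes. Bsg, an inducer of metalloproteases, stood at 0.11 (-0.07 to 0.28). Of 8 membrane-bound ADAM proteases, 5 lay below and 3 above (median -0.05), with Adam17, the sheddase of tumour necrosis factor, at -0.18 (-0.42 to 0.06) and Adam12 at -0.47 (-1.21 to 0.26). Among 27 matrix substrates, 11 lay below and 16 above (median 0.03). Comp, the protein that Adamts12 cuts, stood at 0.69 (-0.02 to 1.39) and Hspg2, the basement membrane proteoglycan perlecan, at 0.24 (-0.05 to 0.53). Comp read 5.67, 5.71, 5.73 and 6.62 on the controls and 6.06, 6.76, 7.32 and 6.34 on the knockouts, so control 4 lay among the knockouts.

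**Figure D5:**
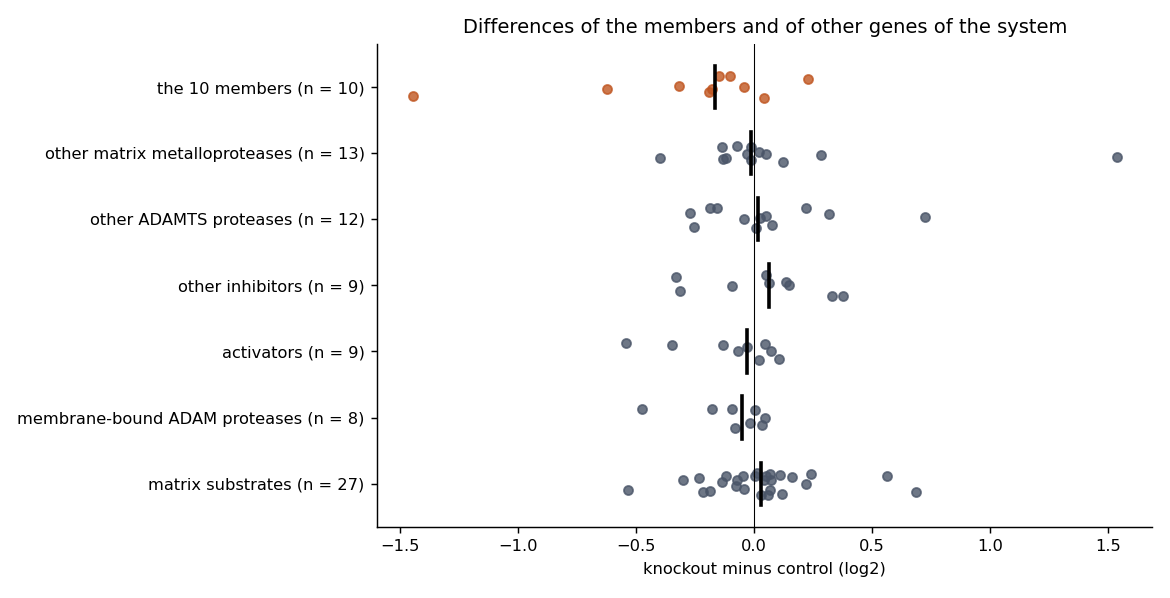
Difference between knockout and control means (log2 scale) of the 10 members in orange and of other genes of the system in grey, 1 point per gene, with a black bar at each list's median. The 10 members centre on -0.16 with Mmp12 at -1.45, and the medians of the other lists lie between -0.05 and 0.06.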

How the data were processed

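RNA of 8 samples was measured on Affymetrix expression arrays, 1 array per sample, 4 per group. The deposited values are log2 signals made by the authors with RMA, per the submitters' processing notes, which corrects background, normalizes between arrays and summarizes probes into probe sets. No RMA version was stated. RMA may compress low values, so differences of dim genes may be understated. No detection calls were used here, and the number of arrays limits the precision.

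Of 45101 probe sets, 64 controls were left out, 34945 had 1 gene symbol in the platform annotation, 932 had several and 9160 none. A gene was represented by its probe set of highest mean. Groups were compared with limma 3.58.1 in R 4.3.3 (lmFit, eBayes, Benjamini-Hochberg over all genes, threshold 0.05), and intervals are not adjusted. Correlations between members were tested by exact permutation. Array sets A and B were split at the widest gap in the arrays' lower quartiles. Named genes are all members, the 5 genes of highest r with Mmp12 and with Adamts12 (mean above the median gene, SD at least 0.2, clone numbers passed over), and the 2 of each list of the protease system with the smallest p. Genes outside this rule, such as Atp6v0d2 and Gpnmb, were chosen after their values were seen.

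The members and lists were chosen with earlier results of these data known. On simulated data for 18193 genes the limma step called 25, 45, 46 and 47 of 50 genes changed by 1.5-fold, 2-fold, 3-fold and 4-fold, with 3 false calls. All these genes were changed in the same run, and the simulated noise was independent between arrays. The simulation held no array sets and no differences in RNA quality. Its counts check the limma step and do not give the share of changes detectable in the real arrays. Alternatives were a variance trend, a filter on dim genes, renormalization, centring, other uses of a gene's probe sets, array weights, the array set or RNA quality as a covariate, and leaving out arrays. Figures were drawn with matplotlib 3.10.9.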

Additional observations from a re-analysis of the deposited data

Results flagged for a closer look

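In 8 of the 72 groups of 4 arrays examined, 1 array lay far from the other 3 for its size of range, where chance flags about 1 group in 20. Among the members, control 3 read 9.08 for Mmp12 against 9.77 to 9.82 on the other controls, and knockout 10 read 4.28 for Mmp3 against 4.21 to 4.22 on the other knockouts. Adam17 read 9.49 on control 3 against 9.09 to 9.12 on the other controls, and 9.16 on knockout 9 against 8.97 to 8.999 on the other knockouts. Comp read 6.62 on control 4 against 5.67 to 5.73 on the other controls. Plaur read 6.85 on knockout 9 against 7.22 to 7.25. The mean of the macrophage markers was 9.075 on knockout 6 against 9.52 to 9.61 on the other knockouts, and that of the neutrophil markers 8.42 on control 4 against 5.84 to 6.07 on the other controls.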

How the results depend on the processing

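Under each of 18 alternatives limma called 0 genes, 0 members and 0 other genes of the system, and under each of 11 alternatives 0 pairs of members passed. Of 199 differences of members under alternatives, 195 moved by less than the SD within groups. The 4 others were Mmp12 without knockouts 9 and 10 (-0.07), Adamts12 in its dimmer probe set (-0.24) and Timp3 within array sets A and B (0.38 and -0.30). Some of the 195 could not move. The variance trend, the filter on dim genes and the array set as a covariate leave these differences unchanged, and so does averaging where a gene has 1 probe set. Mmp12 within sets A and B (-0.26 and -2.64) also counted among the 195, because its SD within groups was 1.20. The counts of followers depended on the settings. For Mmp12 the count of 12 became 5 among genes above the median level, 26 with Spearman's rho, 38 without the 2 arrays farthest from its median, 31 over deviations from group means, and 19 to 90 with each array left out, the highest without control 4. For Adamts12 the count of 19 became 4, 31, 115 and 84 under those settings, 29 after renormalization, 35 with array medians subtracted, and 28 to 81 with each array left out, the highest again without control 4. Fewer arrays make a high r easier to reach; for the other settings the cause was not tested. Subtracting array medians moved the median difference of all genes by -0.03. No paired analysis was possible because the groups share no replicate numbers. Low values limit what Mmp3 and the dimmer probe sets can show.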
